A study of Mus musculus with 8 samples.

Results

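The Hox genes, taken as every probe whose symbol is Hoxa to Hoxd followed by a number, were described by line, cluster and paralog number in mouse embryonic fibroblasts (MEFs), and in each line after removal of H3f3b, a gene for histone H3.3. The rule found 50 probes for 38 genes, of 25697 probes and 16593 symbols on the array. These were 17 probes for 10 Hoxa genes, 13 for 10 Hoxb genes, 11 for 9 Hoxc genes and 9 for 9 Hoxd genes. A gene had several probes in 9 cases.

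The cells were primary fibroblasts of E12.5 C57BL6J embryos, isolated after the head and visceral organs had been taken off, and every array came from cells in which both copies of H3f3b were floxed (H3f3b Fl/Fl). Control cells were transduced with an IRES-GFP retrovirus (the GFP arm), and knockout cells with a CRE-IRES-GFP retrovirus (the Cre arm), so that both arms carried a viral GFP and the controls kept the floxed alleles. The 8 arrays came from 3 lines, cKO1 and pcKO1 with 1 array in each arm and cKO2 with 2, and the cKO2 arrays of an arm were analytical duplicates that were averaged into 1 value. No label says which embryo a line came from, and each line counted as 1 culture, so differences between lines carry no spread between embryos. The deposited signal table names cells in words the labels do not use, and since 2 of its 8 column names read pooled, a line may hold cells of several embryos. The pooled columns share the cell name MEF D with columns that do not read pooled. Some of the lines may therefore be related and not independent. Values are bead intensities that had been scaled to a common mean on each array, called scaled signal below. H3f3b checked the labels. Its scaled signal was 4420.1 with GFP and 169 with Cre in cKO1, 5549 and 6223 against 215 and 219.9 in cKO2, and 4082 against 920.2 in pcKO1, so the Cre cells of pcKO1 kept more of the transcript than those of the other lines.

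Hox proteins are homeodomain transcription factors that tell cells where they lie along the head-to-tail axis and along the limb. Their genes lie in a row in each of the Hoxa, Hoxb, Hoxc and Hoxd clusters, and genes with low paralog numbers are used nearer the head while those with high numbers are used nearer the tail and at the tips of the limbs. Fibroblasts are known to keep the Hox pattern of the place they were taken from in culture. Polycomb proteins hold unused Hox genes silent, and Trithorax proteins keep used ones active.

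Promoter sequences from RefSeq (GRCm38.p6, 250 bases before to 50 after the start) matched 22 of the 38 genes, in 24 windows. The windows of Hoxd13 and Hoxd10 are shown because both genes were highest in cKO1, and those of Hoxa5 and Hoxa2 because both were highest in cKO2. They lie at chr2:74667975-74668274 and chr2:74691641-74691940 on the plus strand, and at chr6:52204538-52204837 and chr6:52164782-52165081 on the minus strand. Capitals mark matches to any of 4 motifs on either strand.
Hoxd13: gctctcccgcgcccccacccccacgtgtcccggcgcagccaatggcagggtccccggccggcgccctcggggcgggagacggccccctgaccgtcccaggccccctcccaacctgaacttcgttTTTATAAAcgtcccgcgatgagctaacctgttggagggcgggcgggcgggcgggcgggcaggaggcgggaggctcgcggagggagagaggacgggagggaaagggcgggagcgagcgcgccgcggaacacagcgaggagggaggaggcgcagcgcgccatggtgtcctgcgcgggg
Hoxd10: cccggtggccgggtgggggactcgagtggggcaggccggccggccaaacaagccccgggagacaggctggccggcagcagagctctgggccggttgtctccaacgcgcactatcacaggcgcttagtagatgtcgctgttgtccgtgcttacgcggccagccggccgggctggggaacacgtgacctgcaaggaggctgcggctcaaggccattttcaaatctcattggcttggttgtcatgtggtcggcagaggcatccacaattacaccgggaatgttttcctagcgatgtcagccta
Hoxa5: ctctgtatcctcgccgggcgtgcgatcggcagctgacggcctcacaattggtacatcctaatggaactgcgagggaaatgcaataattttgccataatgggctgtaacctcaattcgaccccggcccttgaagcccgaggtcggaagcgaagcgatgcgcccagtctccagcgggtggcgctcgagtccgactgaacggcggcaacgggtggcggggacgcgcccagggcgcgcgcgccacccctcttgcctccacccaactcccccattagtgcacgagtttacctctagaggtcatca
Hoxa2: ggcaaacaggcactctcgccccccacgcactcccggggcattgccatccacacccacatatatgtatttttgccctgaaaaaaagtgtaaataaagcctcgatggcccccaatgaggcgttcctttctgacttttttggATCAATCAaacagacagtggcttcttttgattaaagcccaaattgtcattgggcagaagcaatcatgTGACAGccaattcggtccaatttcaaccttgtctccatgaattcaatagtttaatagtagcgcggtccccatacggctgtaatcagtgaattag

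The motifs searched were the TATA box TATAAA, the site TGATNNAT bound by Pbx and Hox proteins together, the Meis site TGACAG and the Cdx site TTTATG. Hoxd13 held TATAAA read from both strands, 2 overlapping matches. Hoxa2 held 1 match to TGATNNAT and 1 to TGACAG, and the windows of Hoxd10 and Hoxa5 held no match to the 4 motifs. TATAAA was found in 4 of the 24 Hox windows (16.7%) and in 13.6% of all 32851 promoters, TGATNNAT in 16.7% and 8.85%, TGACAG in 8.33% and 19.2%, and TTTATG in 20.8% and 11.9%. A match of letters shows no bound factor. CpG dinucleotides numbered 37 in the window of Hoxd13, 22 in that of Hoxd10, 29 in that of Hoxa5 and 9 in that of Hoxa2, against a median of 14.5 over the Hox windows and 7 over all promoters.

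Array backgrounds set what could be seen. Scaled signal at a detection p of 0.05 ran from 146 to 157 over GFP arrays and from 143 to 172 over Cre arrays, and a value over the upper edge of its arm was above background on whichever array it came from. A value inside this band was called only where the number of arrays detected in its arm left 1 answer, and 4 probes kept an array with no call, those of Hoxa4, Hoxb3 and Hoxb5 and the Hoxa9 probe ILMN_1258462. By the deposited detection p-values 24 of the 50 probes were detected on 0 of 8 arrays, 1 on 1 array, 6 on 2 and 5 on all 8. The 25 probes detected on at least 2 arrays were tested, and they stand for 21 genes. The other 25 probes had no value above the upper edge on any array, their highest being 169.4 for Hoxa11 in the Cre array of cKO1, and for 17 genes no probe was tested. Median scaled signal over all probes was 155 on that Cre array and 131 to 149 on the others, so dim Hox probes sat higher on it as well.

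**Figure D1:**
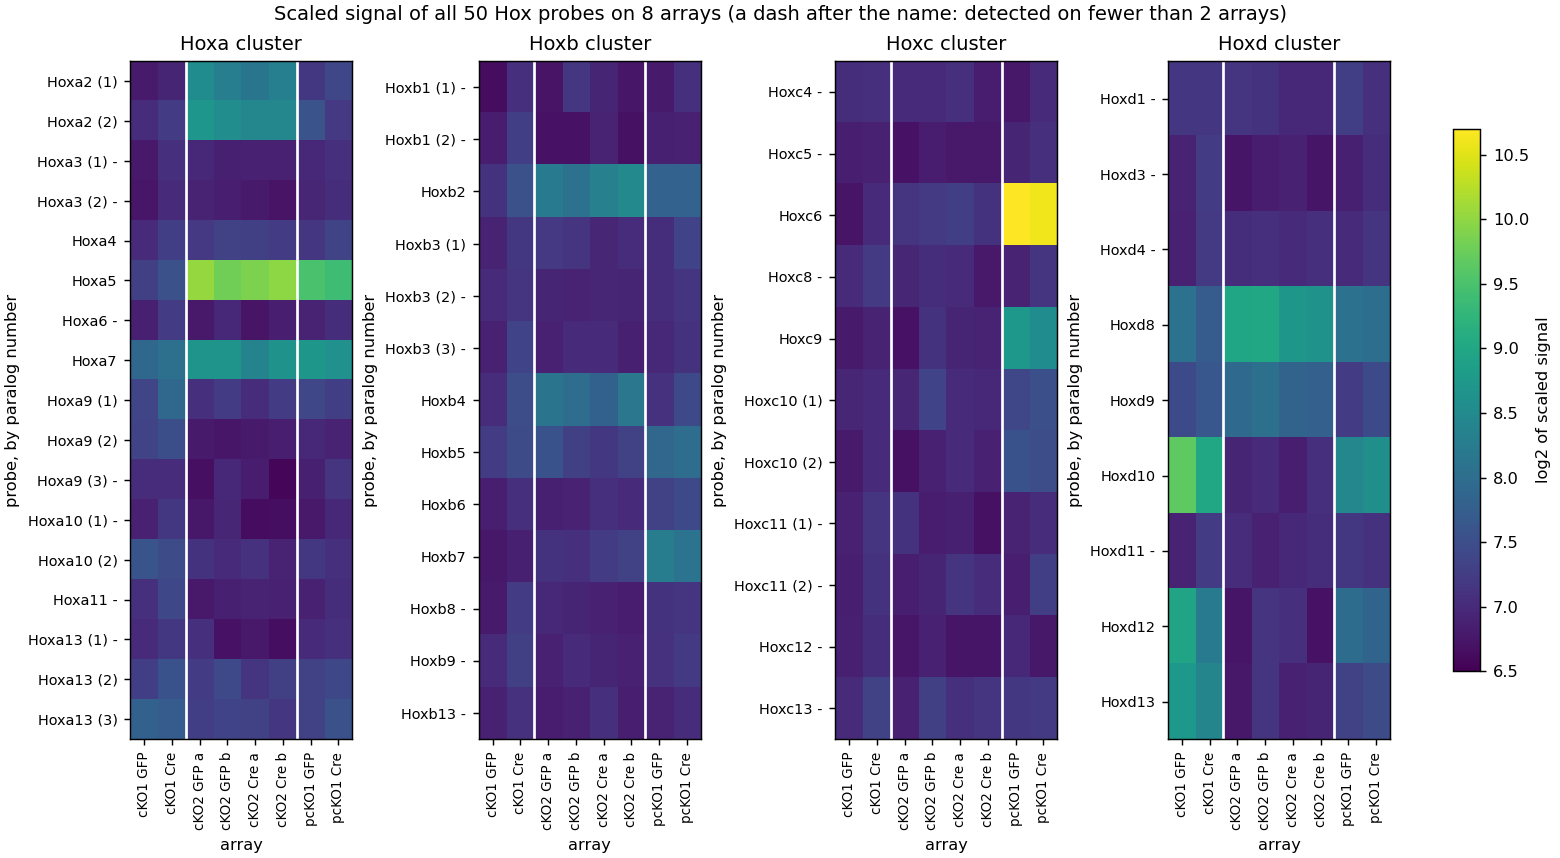
Log2 of the scaled signal (color) of all 50 Hox probes (rows, by cluster and paralog number) on the 8 arrays (columns, by line and arm, with a and b for the cKO2 duplicates). Bright rows were set by line: Hoxc6 is brightest in pcKO1, Hoxd10, Hoxd12 and Hoxd13 in cKO1, and Hoxa2 and Hoxb4 in cKO2, in both arms. Hoxd10 and Hoxd12 are above background in pcKO1 as well.

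The lines shared some detected Hox genes and differed in others. Genes called above background on all arrays of a line numbered 10 in cKO1 (Hoxa5, Hoxa7, Hoxa9, Hoxa10, Hoxa13, Hoxd8, Hoxd9, Hoxd10, Hoxd12 and Hoxd13), 8 in cKO2 (Hoxa2, Hoxa5, Hoxa7, Hoxa13, Hoxb2, Hoxb4, Hoxd8 and Hoxd9) and 15 in pcKO1 (Hoxa5, Hoxa7, Hoxa13, Hoxb2, Hoxb5, Hoxb6, Hoxb7, Hoxc6, Hoxc9, Hoxc10, Hoxd8, Hoxd9, Hoxd10, Hoxd12 and Hoxd13). The 5 genes Hoxa5, Hoxa7, Hoxa13, Hoxd8 and Hoxd9 were on this list in all 3 lines. A further 4 genes were on it in 2 lines, 10 in 1 line and 19 in none. The paralog numbers on it spanned 5 to 13 in cKO1, and 2 to 13 in cKO2 and pcKO1. In cKO2 the upper end rested on Hoxa13 alone, and the next highest was Hoxd9. That Hoxa13 call came from ILMN_3087004 at 144 to 163, with 1 cKO2 array over the upper edge of the band. No Hoxb or Hoxc gene was on it for cKO1 and no Hoxc gene for cKO2, and Hoxb5 had arrays with no call in both of these lines.

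By limma, 21 of the 25 tested Hox probes differed between lines at an adjusted p under 0.05, for 19 genes, where 43.7% of all 12144 tested probes did. Without the detection filter 21 of all 50 Hox probes did, against 19.2% of the 25697 probes, and these were the same 21 probes. The median range between line means was 0.97 on the log2 scale over the tested Hox probes and 0.52 over all tested probes. Of the 25, 12 spanned at least 2-fold, against 18.6% of all tested. That range and count rest on the filtered probes, some of which passed the filter through 1 line alone. Neither was recomputed without the filter. Between cKO1 and cKO2 16 probes were apart (33.4% of all tested), 7 higher in cKO1 (16.8%) and 9 higher in cKO2 (16.6%). Between cKO1 and pcKO1 there were 17 (29.9%), of which 6 were higher in cKO1 (15.3%) and 11 in pcKO1 (14.7%). Between cKO2 and pcKO1 there were 14 (21.3%), with 6 higher in cKO2 (11%) and 8 in pcKO1 (10.3%). The 4 that did not pass were the tested probes of Hoxa4 and Hoxb3, both near background, 1 of 2 tested Hoxa9 probes and 1 of 2 tested Hoxa13 probes. Lines were each read against the disagreement between arms, and with 1 culture a line these p-values say nothing of how embryos vary.

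**Figure D2:**
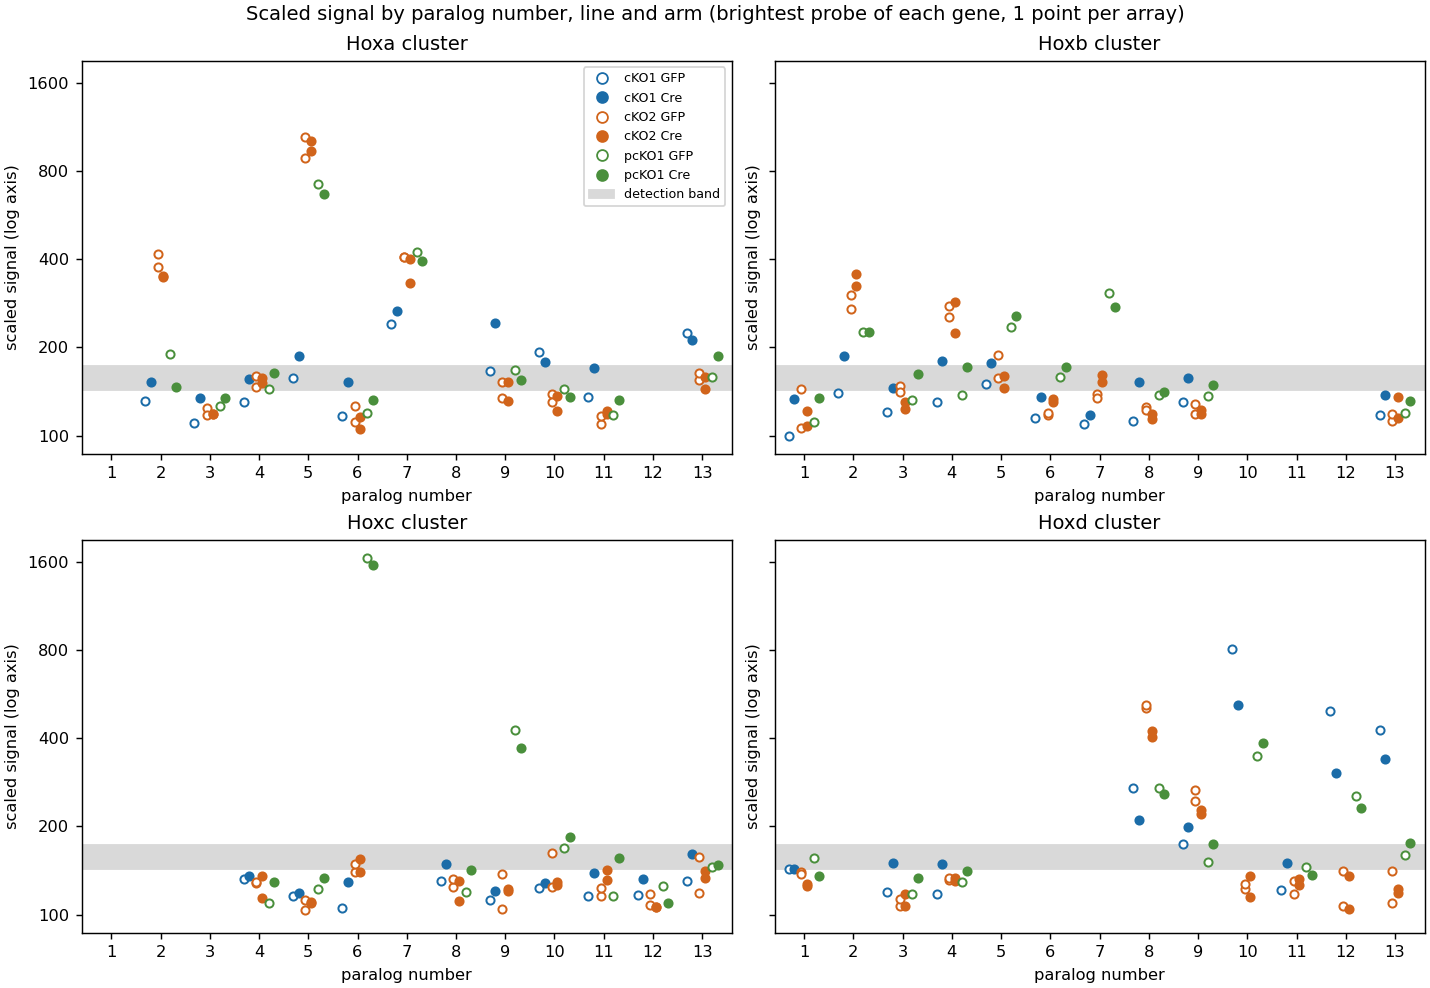
Scaled signal (log axis) against paralog number in each cluster, 1 point per array, for the probe of highest mean signal of each gene, with open points for GFP and filled points for Cre. The gray band spans the signals at a detection p of 0.05, within which some points are detected and others are not. Points clear of it in both arms lie in Hoxa and Hoxd for cKO1, in Hoxa, Hoxb and Hoxd for cKO2, and in all 4 clusters for pcKO1.

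The 5′ end of the Hoxd cluster, which patterns the far limb, the genitals and the tail end, was above background in cKO1 and pcKO1 and not in cKO2. Values below are given as GFP and then Cre, and for cKO2 as both GFP arrays and then both Cre arrays. Hoxd10 scaled signal was 805.5 and 518 in cKO1, 122 and 128 then 115 and 135 in cKO2, and 349 and 387 in pcKO1. All cKO2 arrays lay at background, and the other lines did not overlap each other or cKO2. With cKO2 held at the detection limit, Hoxd10 was at least 5.30-fold higher in cKO1 (adjusted p = 2.19e-05) and at least 2.62-fold higher in pcKO1 (adjusted p = 0.000372). Each such bound sets the mean of the line above background against a floor in the other line. The floor is the normalized signal at the upper edge of the band, or the probe's own signal where that is higher.

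Hoxd12, which acts with its neighbors in the digits and wrist, stood at 494 and 304 in cKO1, at 107 and 141 then 136 and 105 in cKO2, and at 254 and 231 in pcKO1. The order of the lines was that of Hoxd10, again with no overlap. It was at least 2.96-fold higher in cKO1 than in cKO2 and at least 1.57-fold higher in pcKO1 than in cKO2. Hoxd13, the last gene of the cluster and the one that shapes the digits, stood at 428 and 339 in cKO1, at 109.7 and 141 then 119 and 122 in cKO2, and at 159.8 and 176 in pcKO1. Its pcKO1 values were barely over the upper edges of the band, and it was at least 2.97-fold higher in cKO1 than in cKO2. Between cKO1 and pcKO1 the log2 difference was 1.02 ± 0.21 for Hoxd10, 0.92 ± 0.21 for Hoxd12 and 1.62 ± 0.17 for Hoxd13 (SE of the limma fit, 2 values a line), with adjusted p-values of 0.00747, 0.0107 and 0.000288. Hoxd11, which lies between Hoxd10 and Hoxd12, had 1 probe, and its scaled signal of 118 to 149.5 was at background on all 8 arrays.

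In the middle of the Hoxd cluster the order turned. Hoxd8 scaled signal was 508.5 and 519 then 424 and 403.5 in cKO2, against 271 and 211 in cKO1 and 271 and 259 in pcKO1. All cKO2 arrays were above all others, and the other lines overlapped. The log2 difference of cKO2 was 1.07 ± 0.17 over cKO1 (adjusted p = 0.00180) and 0.96 ± 0.17 over pcKO1 (adjusted p = 0.00559), while cKO1 and pcKO1 did not pass (adjusted p = 0.674). Hoxd9 scaled signal was 174.5 and 199 in cKO1, spanned 221 to 266 over the cKO2 arrays and was 151 and 175 in pcKO1, and cKO2 passed against pcKO1 (adjusted p = 0.0114). Hoxd1, Hoxd3 and Hoxd4, at the 3′ end, were not tested, since their probes were detected on 1 array at most.

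In the Hoxa cluster, cKO2 had the low paralog numbers. Hoxa2, which patterns the hindbrain and the second pharyngeal arch, had 2 tested probes. ILMN_2618302 stood at 112 and 122 in cKO1, at 372 and 314 then 279.7 and 318 in cKO2, and at 145 and 168 in pcKO1. ILMN_2874270 stood at 131 and 152 in cKO1, at 416 and 377 then 348 and 349.7 in cKO2, and at 190.5 and 146 in pcKO1. Both probes were detected on all 4 cKO2 arrays and on 0 arrays of cKO1, and in pcKO1 the first was detected with Cre alone and the second with GFP alone. Against cKO1 they were at least 2.37-fold and 2.82-fold higher in cKO2 (adjusted p = 4.23e-05 and 0.000193).

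Hoxa5, which is needed for the lung, the neck skeleton and the trachea, reached 1048 and 888 then 939 and 1014 in cKO2 and 724 and 669.8 in pcKO1, against 157 and 187 in cKO1. Both other lines were far above cKO1, by a log2 difference of 2.89 ± 0.17 in cKO2 (adjusted p = 8.33e-06) and 2.40 ± 0.17 in pcKO1 (adjusted p = 2.65e-05). Between cKO2 and pcKO1 it did not pass, at 0.49 ± 0.17 (adjusted p = 0.0707), although their arrays did not overlap. Hoxa7 was above background on every array, at 240.3 and 266 in cKO1, 333 to 408 in cKO2 and 395 to 424 in pcKO1, and was lowest in cKO1.

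High Hoxa numbers were seen in cKO1. The Hoxa9 probe ILMN_2645155 stood at 164 and 182 in cKO1 and was not above background on any array of cKO2 (108 to 116) or pcKO1 (120.5 to 125), and the bound over cKO2 was at least 1.03-fold. The other tested Hoxa9 probe, ILMN_1258462, stood at 166 and 242 in cKO1, and its test over lines missed the threshold (adjusted p = 0.0641). Hoxa10 (ILMN_2672443) stood at 192 and 178 in cKO1, above 121 to 144.5 elsewhere. Hoxa13, which is needed for the digits and the genital tract, had a probe at 225 and 211 in cKO1 against 144 to 163 in cKO2 and 158.5 and 187 in pcKO1, and this probe (ILMN_3087004) passed the test over lines (adjusted p = 0.0251), while ILMN_3015589 did not (0.682). A further probe of each of these genes was detected on 0 arrays and was not tested. Their values in cKO1 were 131.1 and 131.4 for Hoxa9 (ILMN_2772762), 118.5 and 145.7 for Hoxa10 (ILMN_2646967), and 128 and 145.6 for Hoxa13 (ILMN_1237317). Hoxa3, Hoxa6 and Hoxa11 were not tested.

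The Hoxb cluster was split between cKO2 and pcKO1. Hoxb2, which acts in the hindbrain, stood at 301 and 269.6 then 323 and 357 in cKO2, at 225 and 226 in pcKO1, and at 139 and 187 in cKO1. The lines did not overlap, and all 3 pairs passed, with a log2 difference of 1.22 ± 0.18 for cKO2 over cKO1 (adjusted p = 0.00108). Hoxb4, known for its role in blood stem cells and the neck vertebrae, stood at 277.5 and 255 then 224.5 and 286 in cKO2, at 130.4 and 179.9 in cKO1 and at 138 and 171 in pcKO1. All cKO2 arrays were above the others, by a log2 difference of 1.05 ± 0.18 over cKO1 (adjusted p = 0.00256), and by 1.05 ± 0.18 over pcKO1 (adjusted p = 0.00445).

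Higher in the same cluster, Hoxb7 stood at 306.5 and 274.5 in pcKO1, at 109 and 117 in cKO1, and at 139 and 134 then 152 and 161 in cKO2. Both pcKO1 arrays and both Cre arrays of cKO2 were detected. Hoxb7 was at least 2.08-fold higher in pcKO1 than in cKO1 (adjusted p = 0.000124), and its log2 difference of cKO2 minus pcKO1 was -1.22 ± 0.18 (adjusted p = 0.00223). Hoxb5 was also highest in pcKO1, at 235.5 and 256 against 145 to 188 in cKO2 and 150.4 and 176 in cKO1. Hoxb6 was called between lines with 158 and 171 in pcKO1, both detected, and was detected on 0 arrays of the other lines. Hoxb1, Hoxb8, Hoxb9 and Hoxb13 were not tested.

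Hoxc genes were detected on both arrays of pcKO1, and elsewhere only a Hoxc10 probe was, at 163 on a GFP array of cKO2, and Hoxc6, at 155 on a Cre array of cKO2. Hoxc6, a gene of the thorax and forelimb level, had scaled signals of 1650.2 and 1565 in pcKO1, of 106 and 129 in cKO1, and of 139.7 and 149 then 155 and 139 in cKO2. Hoxc6 was at least 13.9-fold higher in pcKO1 than in cKO1 (adjusted p = 8.14e-07), where no array was detected, and its log2 difference of cKO2 minus pcKO1 was -3.96 ± 0.16 (adjusted p = 2.56e-06). Hoxc9, a gene of the thorax, stood at 426 and 371 in pcKO1, at 112 and 120.1 in cKO1 and at 104 and 138 then 123 and 120.3 in cKO2. It was at least 3.02-fold over cKO1 (adjusted p = 1.90e-05) and 2.87-fold over cKO2 (adjusted p = 5.27e-05).

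Hoxc10, a gene of the lumbar level and hindlimb, had 2 tested probes, both highest in pcKO1. ILMN_2836888 stood at 188 and 179 there against 103 to 130.1 in cKO2 and 111 and 129 in cKO1, and ILMN_2836885 at 169 and 185 in pcKO1. The bound for ILMN_2836888 was at least 1.14-fold over cKO1 (adjusted p = 0.00364). Hoxc8, between Hoxc6 and Hoxc9, was at background on all arrays, at 111 to 149, as were Hoxc4, Hoxc5, Hoxc11, Hoxc12 and Hoxc13.

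The 21 probes that differed between lines were also read by paralog number. The 3 of groups 1 to 3 were all highest in cKO2. In groups 4 and 5, 2 of 3 were highest in cKO2 and 1 in pcKO1. Groups 6 to 8 had 5, with 1 highest in cKO2 and 4 in pcKO1. The 7 of groups 9 and 10 were highest in cKO1 (3), cKO2 (1) and pcKO1 (3). The 3 of groups 11 to 13 were all highest in cKO1. Probes of one cluster share a chromosome region and those of one gene share a transcript, so they are not separate observations. Several of the 21 were detected only in the line where they were highest, such as Hoxa9 (ILMN_2645155), Hoxa10 and Hoxc9. They passed the filter through that line, although the same 21 probes differed without the filter. No such split by highest line was made over all tested probes, so these counts are a description.

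Across the 25 tested Hox probes, the normalized log2 values of arrays from different lines correlated at -0.08 to 0.31 (Pearson, 20 pairs of arrays), where arrays of a line in opposite arms correlated at 0.94 to 0.98 and cKO2 duplicates at 0.97. Over all tested probes the same pairs gave 0.88 to 0.94, 0.97 to 0.99 and 0.99. These are correlations across probes, which are not independent, and are given as a description. Several of the 25 passed the detection filter only through the line where they were high, such as Hoxc9, Hoxb6 and Hoxa10. A low correlation between lines is thus in part set by the filter.

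The nearest measured genes outside the clusters were read as well. Of 16 measured neighbors, the nearest 2 on each side, 9 were tested and 7 differed between lines, where 43.7% of all tested probes did, with ranges of 0.49 to 1.53 on the log2 scale. The 9 tested lay 116 to 565 kb from a cluster. Skap2, an adaptor protein gene 143 kb from Hoxa, was highest in cKO2 with log2 means of 10.12, 11.25 and 10.11 in cKO1, cKO2 and pcKO1. Cbx5, the gene for heterochromatin protein HP1 alpha 155 kb from Hoxc, was highest in cKO1 (9.05, 8.08 and 7.53). Evx2, a homeobox gene 7 kb from the Hoxd cluster, was detected on 0 arrays, as was Evx1, 53 kb from Hoxa.

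Loss of H3f3b was then read within each line. By limma 0 of the 25 tested Hox probes were lower and 0 higher after Cre at an adjusted p under 0.05 (0% of all tested probes in either direction), and at an unadjusted p under 0.05 there was 1, against 3.75% of all tested. That probe was lower (1.99% of all tested), and 0 were higher (1.75%). The median change of the 25 probes was -0.01 on the log2 scale, beside -0.01 over all tested probes. By line the Hox median was 0.02 for cKO1, -0.05 for cKO2 and -0.04 for pcKO1. Single probes lay between -0.80 and 0.67 in cKO1, between -0.33 and 0.31 in cKO2, and between -0.67 and 0.32 in pcKO1. The median size of the fitted change was 0.09, beside 0.105 over all tested probes. A fitted change is an average over the 3 lines, in which opposite changes cancel in part. Over all lines 3 probes were lower after Cre in each line (13.1% of all tested) and 2 were higher in each (12.7%). Each fit rested on 3 lines, and a miss of the threshold does not show that a gene was unchanged. The deleted gene itself missed it, with a fitted log2 change of -4.20 ± 0.50 for H3f3b (SE) and an adjusted p of 0.166 by limma.

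**Figure D3:**
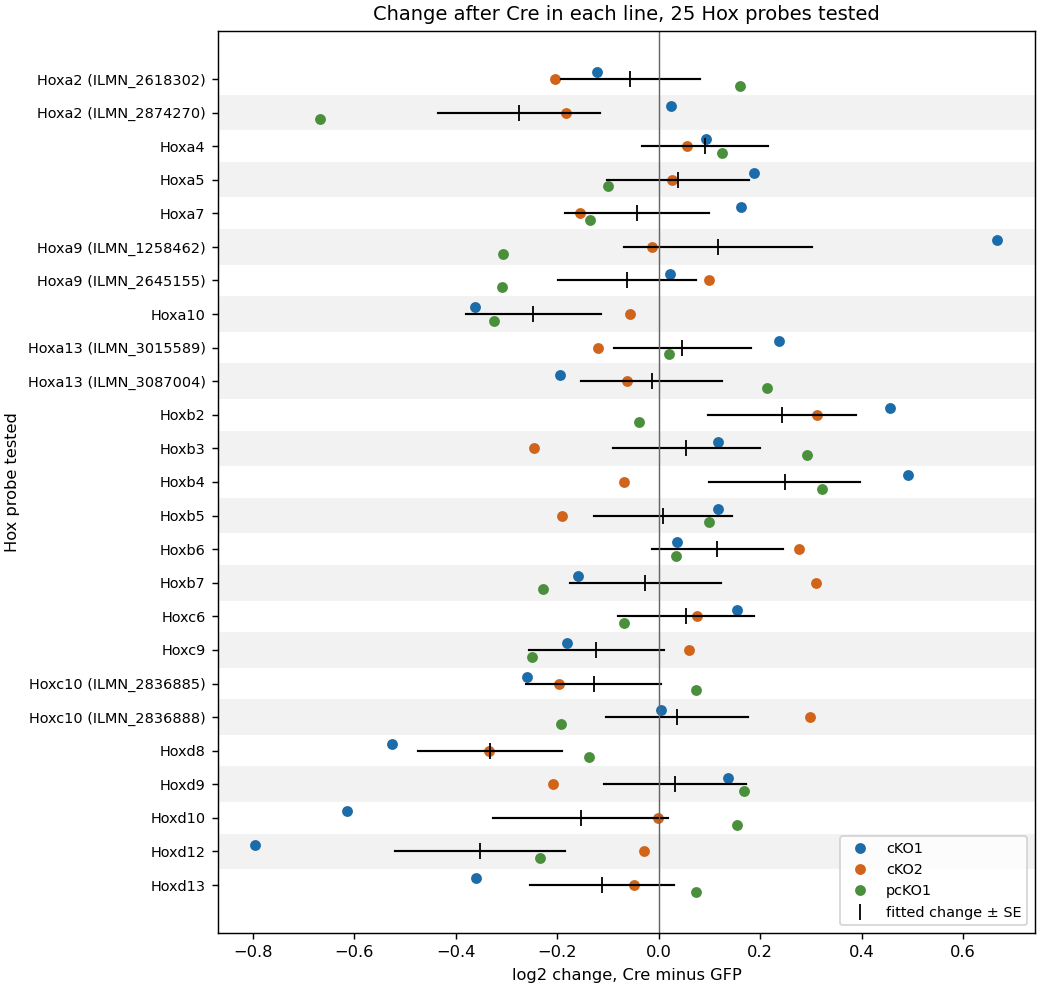
Log2 change, Cre minus GFP, of the 25 tested Hox probes in each line (colored points, cKO2 duplicates averaged), with the fitted change over lines and its SE (black). Most points lie within 0.4 of 0, and the points farthest to the left are those of Hoxd12 in cKO1, a Hoxa2 probe in pcKO1 and Hoxd10 in cKO1.

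The probe with the unadjusted p under 0.05 was that of Hoxd8, whose fitted difference was -0.33 ± 0.14 on the log2 scale (SE over the lines), with a limma p of 0.0441 and an adjusted p of 0.966. Scaled signals were 271 with GFP and 211 with Cre in cKO1, 508.5 and 519 against 424 and 403.5 in cKO2, and 271 against 259 in pcKO1, lower with Cre in all 3 lines. The tested Hoxa10 probe also had lower values with Cre in each line (by -0.36, -0.06 and -0.32 in cKO1, cKO2 and pcKO1). So did Hoxd12 (by -0.80, -0.03 and -0.23), with limma adjusted p-values of 0.966 for both. Hoxa10 was at background in cKO2 and pcKO1, so only its cKO1 value came from detected signal. Hoxd12 was at background in cKO2, where its duplicate pairs differed in sign (0.44 and -0.50).

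In cKO1 4 of the 5 tested Hoxd probes had lower values with Cre. The log2 differences were -0.62 for Hoxd10, -0.80 for Hoxd12, -0.36 for Hoxd13, -0.53 for Hoxd8 and 0.14 for Hoxd9, each from 1 pair of arrays. In pcKO1 the first 4 were at 0.15, -0.23, 0.07 and -0.14, and in cKO2, where all but Hoxd8 were at background, at -0.00, -0.03, -0.05 and -0.33. Of all 25 tested Hox probes in cKO1, 10 had lower and 15 higher values with Cre. Changes over all tested probes were wider in cKO1, with an SD of 0.40, than in cKO2 (0.18) or pcKO1 (0.26). At least 1.5-fold lower with Cre in cKO1 were 2 of the 25 probes, Hoxd10 and Hoxd12, where 7.32% of all tested were, and 1 was at least 1.5-fold higher (Hoxa9, ILMN_1258462, 0.67), where 5.34% were. In pcKO1 1 probe was that much lower (Hoxa2, ILMN_2874270, -0.67, with 1.47% of all tested) and 0 were higher (1.7%), and in cKO2 0 were lower (0.362%) and 0 higher (0.0741%). An interaction test of line and arm, whose error came from the cKO2 duplicates alone, called 0 of the 25 Hox probes, with a smallest adjusted p of 0.109, and 10% of all tested probes. At an unadjusted p under 0.05 it had 3, a Hoxa2, a Hoxa9 and the Hoxd10 probe.

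Other positional genes of cKO1 went both ways on the same Cre array. Of the 17 tested limb and body-wall genes 9 had lower and 8 higher values there than with GFP, with a median log2 difference of -0.11. Msx1, a homeobox gene of the limb bud and jaw mesenchyme, had a scaled signal of 1312 with GFP and 322 with Cre in cKO1, where it went from 338 to 619 in pcKO1 and was 127 to 154 in cKO2. Osr2, a gene of limb joints and palate, went from 655 to 227 in cKO1, from 535 to 607 in pcKO1, and was at background in cKO2. Grem1, a BMP antagonist of the limb bud, went from 705 to 927 in cKO1, and Tbx3, a limb and body-wall T-box gene, from 189.7 to 235. Neither Msx1 nor Osr2 passed the test over lines for an arm effect (adjusted p = 0.969 and 0.966). The collagen gene Col1a1, a fibroblast marker, stood at 6707 with GFP and 2875 with Cre in cKO1, and Col1a2 at 436 and 229.6, while Thy1 stood at 149 and 219.5 and Pdgfra at 197 and 238. The part of these differences in the lower Hoxd values of that array was not tested.

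Of the limb and body-wall genes, 39 were measured and 17 tested, and 0 passed the arm test in either direction, while 8 differed between lines (43.7% of all tested probes did), 5 of them highest in cKO1, 1 in cKO2 and 2 in pcKO1. Prrx1, a gene of limb mesenchyme, stood at 524 and 420.0 in cKO1 and 407 and 379 in pcKO1, against 166 to 179.6 in cKO2. Msx2 stood at 271 and 236 in cKO1, 189 and 185 in pcKO1 and 109.7 to 149.5 in cKO2. Osr2, Msx1, Prrx1 and Msx2, the 4 with the largest range, were thus all lowest in cKO2. Among the others that differed, Lhx9 was also lowest in cKO2. Meox1 was lowest in cKO1, and Grem1 and Tbx5 were lowest in pcKO1. Of the head genes 11 were measured and 3 tested, of which Dlx2 and Dlx1, homeobox genes of the jaw and forebrain, were highest in cKO1, at 185 and 237 for Dlx2 and 216 and 193 for Dlx1.

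Hox cofactors are homeodomain proteins of the Pbx, Meis and Pknox families that bind DNA together with Hox proteins. Of 7 measured and tested, 0 passed the arm test and 4 differed between lines, beside 43.7% of all tested probes, and all 4 were highest in cKO2. Meis1, which marks the near part of the limb, stood at 1078 and 955.5 then 893 and 992 in cKO2, at 247 and 213 in cKO1 and at 397 and 445 in pcKO1, with no overlap (adjusted p = 9.28e-05). Pknox2 stood at 265 to 372 in cKO2, 185 and 154 in pcKO1, and 126 and 125 in cKO1. Meis2 stood at 810.0 to 881 in cKO2, 457 and 429 in cKO1 and 507 and 627 in pcKO1, and Pbx3 at 173 to 189 in cKO2 with overlap at the low end.

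Retinoic acid, whose receptors switch on 3′ Hox genes in the embryo, was represented by 19 measured genes, of which 7 were tested. None passed the arm test (0) and 3 differed between lines, a share near the 43.7% of all tested probes. Crabp1, a cytoplasmic retinoic acid binding protein, stood at 1434 and 899 in pcKO1 and at 110.3 to 165 elsewhere, at background. Crabp2, its relative, stood at 886 and 786 in cKO1 and 542 and 426.5 in pcKO1, against 147 to 151 in cKO2. Rarg, a retinoic acid receptor, was lower in pcKO1 (237 and 224) than in the other lines (288 to 328).

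**Figure D4:**
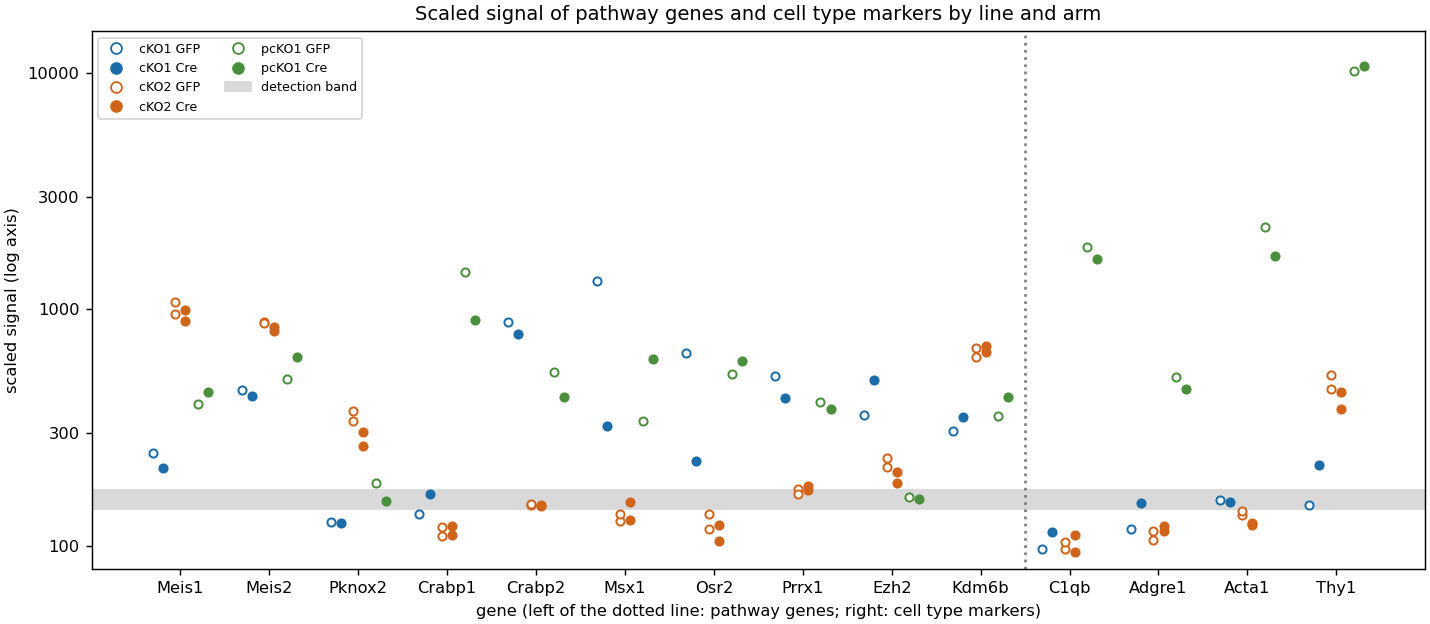
Scaled signal (log axis) of pathway genes and of cell type markers, 1 point per array, open for GFP and filled for Cre, with the detection band in gray. Meis1, Meis2 and Pknox2 are highest in cKO2, Crabp2, Msx1 and Prrx1 are lowest in cKO2, and C1qb, Adgre1, Acta1 and Thy1 are highest in pcKO1.

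Polycomb and Trithorax genes had 25 measured and 18 tested members, with 0 arm calls and 8 line calls, a share near the 43.7% of all tested probes. Ezh2, the enzyme that methylates H3 at lysine 27, stood at 359 and 501 in cKO1, 185 to 236 in cKO2 and 160.5 and 158 in pcKO1 (adjusted p = 0.000562). Bmi1, a subunit of Polycomb repressive complex 1, was low in pcKO1 (157 and 194, against 255 to 349.5 elsewhere). Phc2 of the same complex was lowest in cKO2 (1067 to 1308, against 1804 to 2651), and Kdm6b, an enzyme that removes the mark Ezh2 writes, was highest there (626 to 698, against 306 to 426.5). The 8 measured ParaHox and other Antennapedia-class homeobox genes had 1 tested member and 0 calls. None of the listed noncoding transcripts of the Hox clusters was measured (0 of 18).

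Markers of other cells moved with pcKO1. Of 6 macrophage or blood markers measured, 3 were tested and all 3 were highest in pcKO1. The macrophage genes C1qb (1844 and 1626), Adgre1 (518 and 462) and C1qa (378 and 333) were above background there and at background in the other lines, while the leukocyte gene Ptprc and the globin genes Hba-a1 and Hbb-bh1 were at background on all arrays. The summed signal of the list was 2822 to 3101 in pcKO1, 704 to 864 in cKO1 and 666 to 726 in cKO2. Of 8 skeletal muscle markers 3 were tested and called between lines, of which Acta1 (2228 and 1688) and Des (267 and 205) were highest in pcKO1 and Tnnt1 in cKO2 (158 to 196). The muscle regulators Myod1, Myog, Myf5 and Myf6 were detected on 1 array at most, and the list had a summed signal of 2754 to 3284 against 1005 to 1166 in the others. Thy1, a fibroblast surface protein also found on other cells, stood at 10168 and 10732 in pcKO1, at 378 to 530 in cKO2 and at 149 and 219.5 in cKO1. The part of these cells in the Hoxc and other Hox signals of pcKO1 was not tested, and in bulk RNA a larger share of cells that use a gene cannot be told apart from more RNA per cell.

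Of the other marker lists, all 8 tested fibroblast markers differed between lines, beside 43.7% of all tested probes. The highest line was pcKO1 for 4 of them, cKO2 for 3 and cKO1 for 1. Their median range was 1.95 on the log2 scale, beside 0.97 over the tested Hox probes. Col1a2 stood at 1563 to 2215 in cKO2 against 436 and 229.6 in cKO1, and S100a4 at 152 to 204 against 540 and 571. Col1a1 and Vim were well above background on all arrays and Postn was detected on 0 arrays. Vim was the largest term of the summed signal on every array, at 15338 to 21676. The 9 measured fibroblast markers summed to 24768 to 30376 in cKO1, 29811 to 32365 in cKO2 and 38017 to 40681 in pcKO1. The summed neural markers were 2643 to 2941 in cKO1, 2126 to 2321 in cKO2 and 2700.1 to 2783 in pcKO1, and Stmn2 and Map2 were lowest in cKO2. Cartilage markers summed to 1035 to 1190 in cKO1, 1285 to 1490 in cKO2 and 1611 to 1630 in pcKO1. Epithelial and endothelial markers had 0 line calls, with sums over all arrays of 829 to 1036 and of 722 to 867. What these sums add to the Hox values of a line was not tested.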

How the data were processed

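RNA of 3 lines in 2 arms was hybridized to 8 arrays of Illumina MouseRef-8 BeadChips. The authors deposited intensity values named by sample, on a linear scale with a mean of 508.3 on each array, and a table of signal and detection p-values whose columns name only an arm and a cell name not used in the labels. The labels name GenomeStudio. Each sample column equaled a column of that table times a constant within 0.2%. Because no cell name matched a label, the deposited detection p-value was counted per arm and not assigned to samples by their values, and calls per line came from these counts and the signal band at the threshold.

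Intensities were corrected by normexp (offset 50), quantile normalized and turned into log2 values, and cKO2 duplicates were averaged. Of all probes, 12144 entered the fit, namely those with a detection p-value below 0.05 for 2 or more of the 8 arrays, because a gene used in 1 line could be detected on only 2 arrays. R 4.3.3 and limma 3.58.1 fitted line and arm, with eBayes and an intensity trend, 2 residual and 7.03 prior degrees of freedom, and Benjamini-Hochberg over all kept probes. P-values are two-sided. Pairing came from the line label, and arms of a line deviated together (correlations of 0.811, 0.909 and 0.771). The fit was tested on simulated data.

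The members and all gene lists were chosen with earlier results of these data known. Full values are given for the 14 probes of largest range among those passing, for the 4 genes of largest range per list, and for the nearest 2 neighbors of each cluster as counts. Hoxa7, Hoxa10, Hoxa13, Hoxb5, Hoxb6, Hoxd9, Hoxd11, Hoxc8, Grem1, Tbx3, Tbx5, Lhx9, Meox1 and the cell markers are outside that rule and were named after their values were seen. The array design limits precision to 3 lines. Symbols came from the platform annotation, which gave 23978 probes 1 symbol and 1719 none.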

Additional observations from a re-analysis of the deposited data

How the results depend on the processing

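The counts of Hox probes were recomputed under other background corrections, scalings, filters and fits. Requiring detection on all 8 arrays left 5 Hox probes and moved the counts, since fewer probes were tested. All 5 differed between lines, where 51.7% of all probes tested did. Of the 5, 5 were apart between cKO1 and cKO2, 3 between cKO1 and pcKO1 and 2 between cKO2 and pcKO1. Under the other settings that kept all lines, 16 to 22 Hox probes differed between lines, of 19 to 50 tested. The share over all probes tested ran from 19.2% to 59.2%. Leaving out a line in turn, 16 to 17 of 25 did, against 23.3% to 42.7% of all probes tested. Calls after Cre numbered 0 under all 16 alternatives, including the fit with no replicate block and the neqc fit of 4 Cre against 4 GFP columns with no replicate block, which also had 0 Hox probes at an unadjusted p under 0.05. Over the whole array those fits also had 0 arm calls, and at most 5 probes passed under any setting that kept all lines. The 0 Hox calls there thus say little. Without cKO1 107 probes of the whole array passed the arm test, without pcKO1 83 and without cKO2 3, with 0 Hox probes among them. The Hoxd8 change after Cre ran from -0.44 to -0.24 over the alternatives. All 14 named differences between lines kept their direction and their side of the threshold wherever the probe was tested and both lines were in the fit. Bead signals near the detection band limit what can be said of folds, and no depth beyond the number of arrays is known.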
